A study of Rattus norvegicus with 6 samples.

Results

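Kruppel-like factors are transcription factors that bind CACCC and GC-rich sequences through zinc fingers at the C-terminal end of the protein, and they differ mainly in the activating or repressing part that precedes the fingers. In arteries, Klf2 and Klf4 are known as factors that laminar flow keeps on in the endothelium, Klf4 and Klf5 as regulators of the smooth muscle phenotype after injury, Klf6 and Klf10 as early genes of wounding and TGF-beta signalling, and Klf9 and Klf15 as targets of the glucocorticoid receptor. The 10 genes described here, Klf2, Klf3, Klf4, Klf5, Klf6, Klf7, Klf9, Klf10, Klf13 and Klf15, were taken by symbol from the 24005 gene symbols of the deposited read-count table. All 10 were found there and all 10 were among the 15860 genes abundant enough to be tested.

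The libraries were made from polyadenylated RNA of rat common carotid arteries. The control was 1 library of a normal artery without clot or treatment. The day 1 group had 3 libraries and the day 7 group 2, all of arteries in which ferric chloride had produced a clot and in which sonodynamic therapy, ultrasound that excites a sensitizer, combined with what the submitters name physical-explosion therapy had reopened the lumen. No library of an injured but untreated artery or of a treated but uninjured artery was analysed here, so the injury, the clot and the treatments cannot be told apart. Strain, sex and age are not given in the labels, nor is whether each library is a separate animal, and each p-value therefore reflects the scatter among these libraries, which may be technical.

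Library totals ranged from 30078022 to 47240013 counts. All 9 smooth muscle markers and all 10 endothelial markers had more than 3 counts in every library, as an artery should have. Day 1 replicate 1 stood apart from its group. On principal component 1 (52.7% of the variance) it lay at -129 and the control at -135, whereas the other 4 libraries lay between 37.3 and 81.7. Its 9 macrophage markers summed to 44.6 CPM (counts scaled by the normalized library total), against 67.8 in the control and 2631 to 6141 in the other 4 libraries. Its 10 endothelial markers summed to 195 CPM, against 1172 in the control and 377 to 1818 in the others. Of these markers, Kdr, Erg and Flt1 were not below the control in this library. Results that rest on this library are given with and without it.

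The start-site windows of 4 members are shown because their levels are compared below with those of early response genes (Klf6), with the largest excess over the control (Klf5) and as the pair that was lower in every treated library (Klf9 and Klf15). RefSeq gives windows of 300 bases around the annotated start on build GRCr8 for 7 of the 10 members, and Klf2, Klf10 and Klf13 had no entry. The build behind the counts is not given in the sources used here. Capitals mark the KLF core CACCC or its complement GGGTG, the cyclic AMP response core TGACG or its complement CGTCA, and the CArG box bound by serum response factor. The windows are chr17:69458429-69458728 on the minus strand for Klf6, chr15:82471831-82472130 on the plus strand for Klf5, chr1:230126396-230126695 on the plus strand for Klf9 and chr4:124522765-124523064 on the plus strand for Klf15, each written in the direction of the gene.
Klf6: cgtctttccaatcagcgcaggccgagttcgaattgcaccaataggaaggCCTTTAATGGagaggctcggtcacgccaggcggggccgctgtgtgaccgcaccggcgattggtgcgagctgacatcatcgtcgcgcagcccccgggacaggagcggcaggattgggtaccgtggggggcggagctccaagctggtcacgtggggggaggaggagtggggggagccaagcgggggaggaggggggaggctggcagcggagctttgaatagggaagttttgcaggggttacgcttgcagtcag
Klf5: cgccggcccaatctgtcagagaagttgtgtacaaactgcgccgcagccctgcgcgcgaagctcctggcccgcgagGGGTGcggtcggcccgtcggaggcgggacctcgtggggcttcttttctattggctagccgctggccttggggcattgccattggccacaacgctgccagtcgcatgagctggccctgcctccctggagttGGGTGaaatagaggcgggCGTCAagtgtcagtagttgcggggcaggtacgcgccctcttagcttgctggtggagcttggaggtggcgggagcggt
Klf9: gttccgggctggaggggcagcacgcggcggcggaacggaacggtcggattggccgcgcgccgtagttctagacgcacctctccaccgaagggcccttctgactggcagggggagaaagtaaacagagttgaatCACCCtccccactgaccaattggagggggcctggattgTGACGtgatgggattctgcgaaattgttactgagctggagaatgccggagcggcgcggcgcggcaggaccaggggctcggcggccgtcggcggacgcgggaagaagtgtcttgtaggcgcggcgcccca
Klf15: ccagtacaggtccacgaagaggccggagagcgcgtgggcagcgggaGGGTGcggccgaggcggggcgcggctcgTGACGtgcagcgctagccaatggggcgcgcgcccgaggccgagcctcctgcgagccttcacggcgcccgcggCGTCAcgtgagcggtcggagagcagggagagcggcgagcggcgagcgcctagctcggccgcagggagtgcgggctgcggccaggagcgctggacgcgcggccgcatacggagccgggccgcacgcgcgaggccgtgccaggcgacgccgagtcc
Klf6 held a CArG box 201 bases before the start, a motif present in 1.64% of 33469 rat windows of the same length. Klf9 had 1 cyclic AMP response core, 79 bases before the start, and Klf15 had 2, 176 and 104 bases before it, and 21.2% of all windows held at least 1. Klf5 had 1 as well, 27 bases before the start. The KLF core, found in 54.9% of all windows, occurred 2 times in Klf5, 1 time each in Klf9 and Klf15 and not in the Klf6 or Klf4 window. The GC box core CCGCCC, not marked above and found in 33.1% of all windows, occurred 1 time each in Klf6, Klf3 and Klf7. In Klf6 it lay 76 bases before the start, as its complement GGGCGG. No window of the 7 held a match to the MEF2 or NF-kB motif, or to the full glucocorticoid motif or its core AGAACA. The annotated start of Klf4 may not be its main start, so the lack of matches in its window may not hold for its promoter. The full cyclic AMP motif TGACGTCA was absent from the 7 as well, and the AP-1 motif TGANTCA occurred only in Klf9. Both strands were searched, the cyclic AMP and glucocorticoid cores were added to the search after the other motifs had been chosen, and a match is a description of the letters, not a binding site.

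In the normal artery the most abundant members per gene length were Klf9 at 107 FPKM (counts per gene length and library total), Klf2 at 65.9, Klf6 at 61.5 and Klf15 at 50.0 FPKM. Klf4 followed at 21.1 FPKM, then Klf3 at 11.6, Klf7 at 10.5, Klf13 at 7.84 and Klf10 at 4.65, and Klf5 was lowest at 0.177 FPKM. With 1 library, neighbours in this order cannot be compared against a spread. At day 1 the mean order began with Klf6 (147 FPKM), Klf2 (110.4), Klf4 (101) and Klf9 (68.5), whose ranges over the 3 libraries overlapped each neighbour's. Every day 1 library had more Klf9 (at least 48.4 FPKM) than Klf13, the next in order, which reached at most 31.1 FPKM. At day 7 Klf2 led with a mean of 204 FPKM, followed by Klf6 at 96.4, Klf4 at 67.0 and Klf9 at 48.3, again with overlapping ranges between neighbours.

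**Figure D1:**
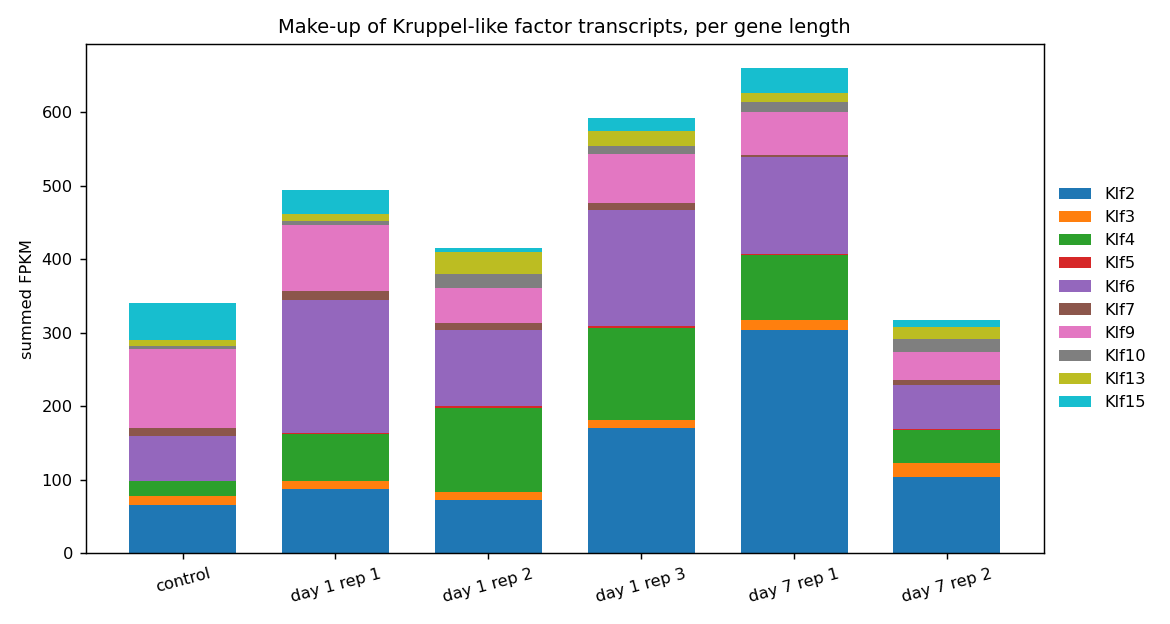
FPKM of the 10 members stacked for each of the 6 libraries, on a linear axis from 0, with no error bars since each bar is 1 library. The summed level was 340.2 FPKM in the control, 415 to 592 at day 1 and 659.6 and 317 at day 7, and the share of Klf9 was 31.5% in the control and at most 18.3% in a treated library.

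The share each member took of this sum differed between the control and the treated arteries. Klf4 made up 6.19% of the members' summed FPKM in the control, 13.1%, 27.5% and 21.1% in day 1 replicates 1 to 3, and 13.4% and 14.4% at day 7. Klf15 made up 14.7% in the control and between 1.13% and 6.42% in the treated libraries. The control therefore lay below every treated library for Klf4 and above every treated library for Klf9 and Klf15. A share of a sum moves with the other members, and the levels of single members follow.

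The first question was how the factors tied to flow and to the smooth muscle phenotype stood after recanalization. Klf4, which restrains inflammatory genes in endothelium and represses contractile genes in smooth muscle, had 51.8 CPM in the control. It had 177, 259.9 and 286 CPM in day 1 replicates 1 to 3, and 197 and 103 CPM in day 7 replicates 1 and 2. All 5 treated libraries were above the control, from 1.98-fold in day 7 replicate 2 to 5.52-fold in day 1 replicate 3. The fitted log2 fold change was 2.22 ± 0.54 (SE) at day 1 and 1.53 ± 0.54 at day 7. In a bulk sample, more cells of a type and more RNA per cell cannot be told apart.

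No member passed the threshold in any of the 3 comparisons with all 6 libraries, where edgeR called 0% of 15860 genes at an adjusted p under 0.05, with p adjusted over all tested genes. For Klf4 the edgeR adjusted p was 0.475 at day 1 and 0.477 at day 7. At an unadjusted p under 0.05, day 1 against the control had 2 of the 10 members (Klf4 and Klf5) beside 8.66% of all genes, and day 7 against the control had 1 (Klf4) beside 10.1%. Without day 1 replicate 1, edgeR called Klf4 (log2 fold change 2.40 ± 0.48, adjusted p = 0.0446) and Klf5 (3.86 ± 0.77, adjusted p = 0.0432) higher at day 1, 2 of 10 members beside 4.83% of all genes called higher. DESeq2 on all 6 libraries called Klf4 (adjusted p = 0.00291) and no other member, beside 4.46% of genes called higher. Over 11 alternatives the adjusted p of Klf4 at day 1 ranged from 0.00291 to 0.726, and that of Klf5 from 0.0432 to 0.803.

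Klf5, which promotes growth and the synthetic state of smooth muscle, was the scarcest member. Its counts were 13 in the control, 38, 236 and 158 at day 1, and 46 and 52 at day 7. In CPM these are 0.422 (exact Poisson 95% interval 0.225 to 0.722, for counting error only), then 1.22, 7.28 and 5.09, then 0.918 and 1.58. All 5 treated libraries were above the control. Only in day 7 replicate 1 did the interval, 0.672 to 1.22 CPM, overlap that of the control.

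At day 1, replicates 2 and 3 had 16.6 and 11.6 times the control level of Klf5, and replicate 1 had 2.81 times. The fitted log2 fold change was 3.41 ± 1.28 at day 1 (edgeR adjusted p = 0.577) and 1.55 ± 1.19 at day 7 (adjusted p = 0.592). Between the times, day 7 replicate 1 lay below the day 1 range and replicate 2 within it, and the log2 fold change of day 7 against day 1 was -1.86 ± 0.85 (adjusted p = 0.520).

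Klf2, the flow-induced factor that raises endothelial nitric oxide synthase and thrombomodulin, had 72.3 CPM in the control, 107, 73.9 and 174 CPM at day 1, and 302 and 104 CPM at day 7. Day 1 replicate 2 was level with the control (1.02-fold), and the highest value, in day 7 replicate 1, was 2.90 times that of its day 7 partner. The log2 fold change was 0.71 ± 0.75 at day 1 (edgeR adjusted p = 0.756) and 1.49 ± 0.82 at day 7 (adjusted p = 0.502), so the SE was as large as the difference at day 1. Against day 1, the day 7 log2 fold change was 0.78 ± 0.56 (edgeR adjusted p = 0.636), and it was -0.19 without day 7 replicate 1.

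**Figure D2:**
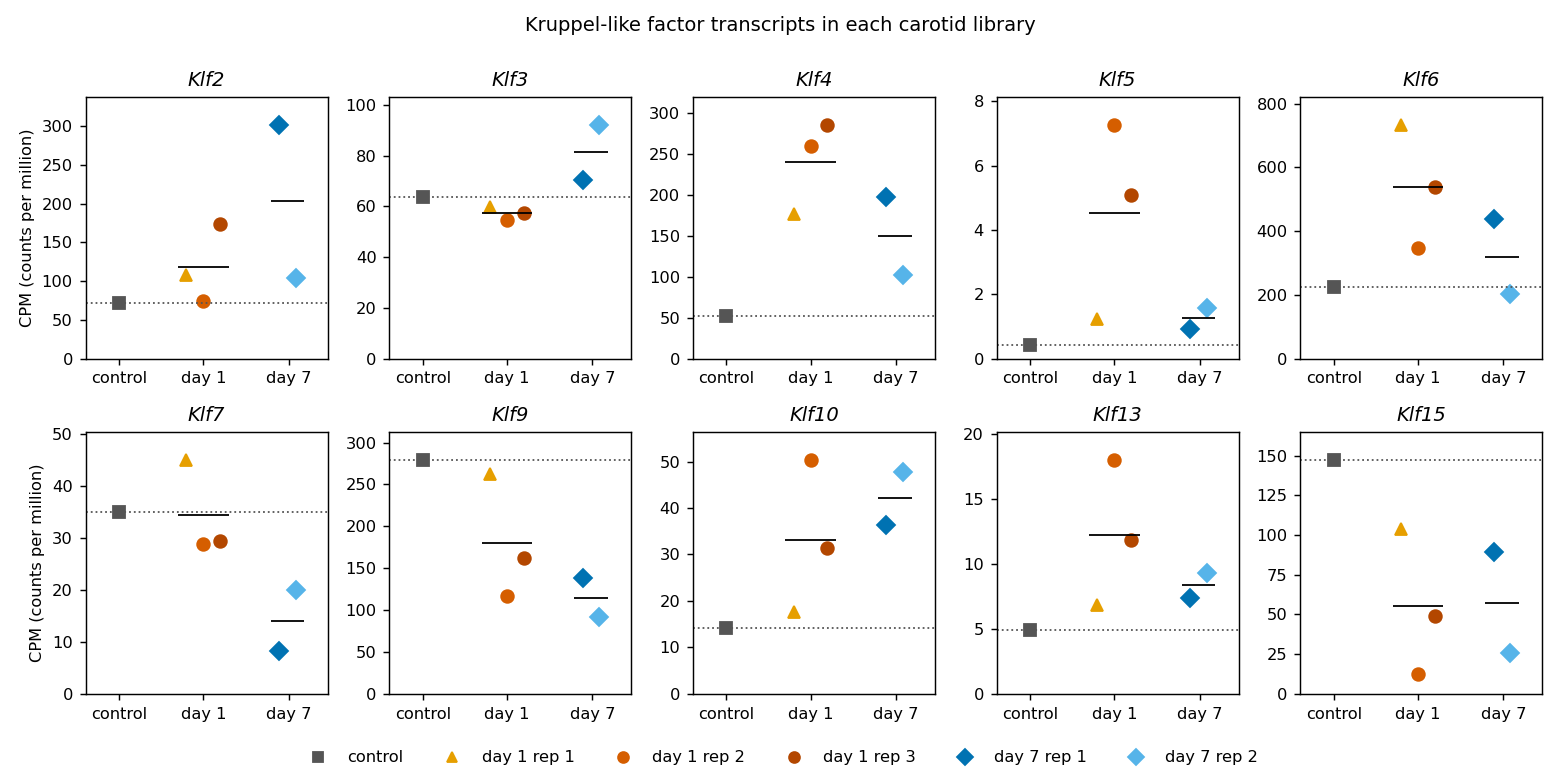
CPM of each of the 10 members in the 6 libraries, each panel on its own linear axis from 0. Symbols are single libraries, short bars are group means and the dotted line is the control. Klf4, Klf5, Klf10, Klf13 and Klf2 lie above the line in all 5 treated libraries, and Klf9 and Klf15 below it. Klf2 in day 1 replicate 2 is only 1.02-fold over the control.

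Klf6 and Klf10 are early genes of wounding and TGF-beta. Klf6, which activates endoglin and other TGF-beta pathway genes in injured vessels, had 225 CPM in the control, 734, 347 and 538 CPM at day 1, and 438 and 201 CPM at day 7. The 3 day 1 libraries were 1.54 to 3.27 times the control, while the day 7 pair lay on either side of it. The log2 fold change was 1.26 ± 0.65 at day 1 (edgeR adjusted p = 0.596) and 0.51 ± 0.65 at day 7 (adjusted p = 0.743), the latter -0.16 without day 7 replicate 1. Klf6 and Klf7 were the members whose highest library was day 1 replicate 1.

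Klf10, which TGF-beta induces and which restrains Smad7, had 14.2 CPM in the control, 17.5, 50.3 and 31.3 CPM at day 1, and 36.4 and 47.8 CPM at day 7. The 5 treated libraries were 1.24 to 3.54 times the control, with the smallest excess in day 1 replicate 1. The log2 fold change was 1.22 ± 0.63 at day 1 (edgeR adjusted p = 0.596) and 1.57 ± 0.66 at day 7 (adjusted p = 0.477). Without day 1 replicate 1 these were 1.52 ± 0.42 (adjusted p = 0.0971) and 1.57 ± 0.42 (adjusted p = 0.100).

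Klf13, known in T lymphocytes as an activator of the chemokine gene Ccl5, had 4.90 CPM in the control, 6.88, 18.0 and 11.8 CPM at day 1, and 7.40 and 9.32 CPM at day 7. Its order over the day 1 libraries was that of Klf5 and Klf10, with replicate 2 highest and replicate 1 lowest. Of the 45 pairs of members, Klf10 and Klf13 were the closest in pattern, with a root mean square difference of 0.42 between their centred log2 CPM over the 6 libraries. The log2 fold change of Klf13 was 1.32 ± 0.63 at day 1 (edgeR adjusted p = 0.592) and 0.77 ± 0.63 at day 7 (adjusted p = 0.612).

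Klf9 and Klf15, which glucocorticoids induce in many tissues, were lower than the control in every treated library. Klf15, which drives genes of amino acid and lipid use, had 147 CPM in the control, 104, 12.8 and 49.2 CPM at day 1, and 89.1 and 25.6 CPM at day 7. The control was thus 1.42, 11.5 and 2.99 times the day 1 libraries and 1.65 and 5.74 times the day 7 libraries. The spread within each group was wide, and the log2 fold changes were -1.41 ± 1.11 at day 1 (edgeR adjusted p = 0.683) and -1.36 ± 1.21 at day 7 (adjusted p = 0.640). The day 1 value was -2.25 ± 0.96 without day 1 replicate 1 (adjusted p = 0.266).

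Klf9, the most abundant member of the normal artery, had 279 CPM there, 262, 117 and 162 CPM at day 1, and 138 and 91.4 CPM at day 7. Day 1 replicate 1 was close to the control, and the other 4 libraries were between 0.33 and 0.58 times its level. The log2 fold change was -0.63 ± 0.49 at day 1 (edgeR adjusted p = 0.681) and -1.28 ± 0.52 at day 7 (adjusted p = 0.477). Without day 1 replicate 1 these were -1.003 ± 0.36 (adjusted p = 0.179) and -1.28 ± 0.36 (adjusted p = 0.114).

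Klf3 and Klf7 were near the control at day 1. Klf3, a repressor that acts through the corepressor CtBP, had 63.5 CPM in the control, 59.6, 54.7 and 57.3 CPM at day 1, and 70.5 and 92.2 CPM at day 7. It was the steadiest member, with a highest library 1.69 times its lowest, and its groups did not overlap. Both day 7 libraries were above every day 1 library for 17.2% of all tested genes. The 3 day 1 libraries lay below the control and both day 7 libraries above it, with a log2 fold change of day 7 against day 1 of 0.51 ± 0.20 (edgeR adjusted p = 0.491).

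Klf7, known for roles in neurons and as a repressor of fat cell formation, had 34.9 CPM in the control, 45.0, 28.8 and 29.4 CPM at day 1, and 8.22 and 20.0 CPM at day 7. Both day 7 libraries were below all other libraries, at 0.24 and 0.57 times the control. The log2 fold change was -1.31 ± 0.57 for day 7 against the control (edgeR adjusted p = 0.477) and -1.29 ± 0.46 for day 7 against day 1 (adjusted p = 0.481). Klf3 and Klf7 were the 2 members with an unadjusted p under 0.05 between the times, beside 10.1% of all genes.

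**Figure D3:**
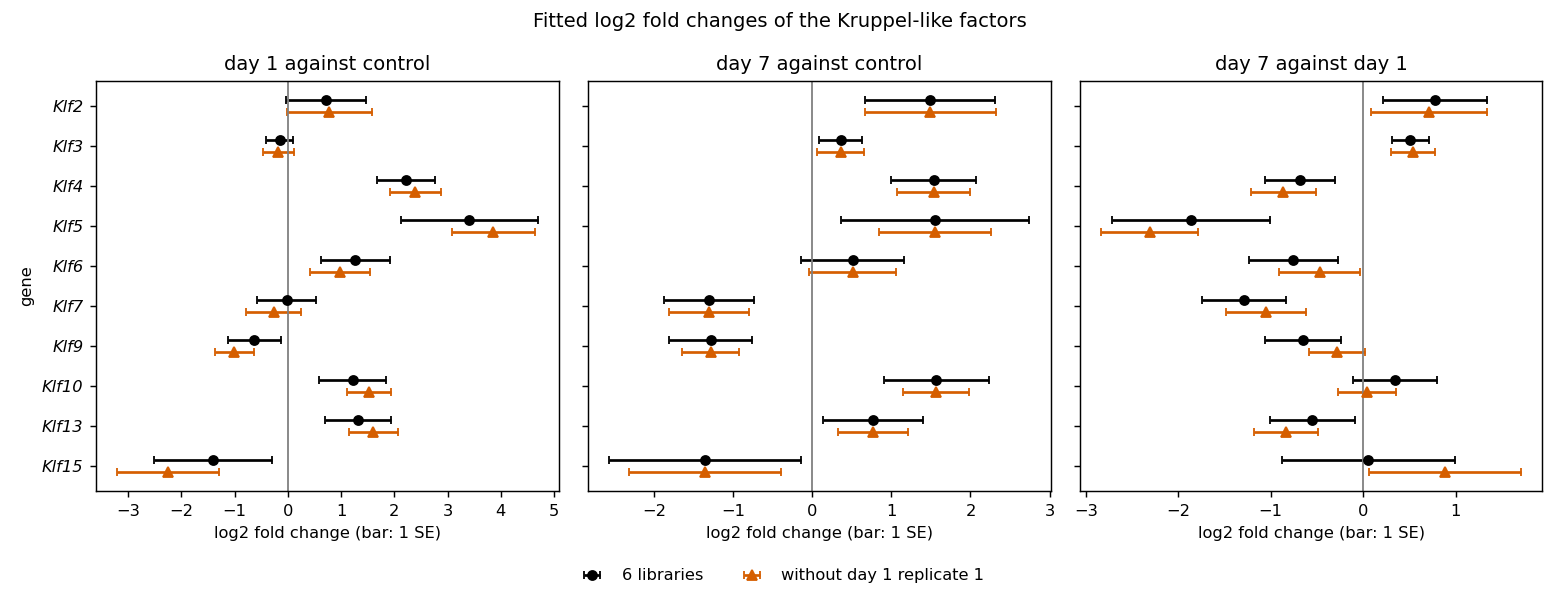
Fitted log2 fold changes of the 10 members in the 3 comparisons, with bars of 1 SE, from edgeR on all 6 libraries (circles) and without day 1 replicate 1 (triangles). The day 1 values of Klf4 and Klf5 without that library, 2.40 and 3.86, are the ones past the threshold.

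Counted by position, 6 of the 10 members had all 3 day 1 libraries above the control (Klf2, Klf4, Klf5, Klf6, Klf10 and Klf13), where 27.5% of tested genes did, and 3 had all below it (Klf3, Klf9 and Klf15), where 27.2% did. At day 7, 6 members lay above (Klf2, Klf3, Klf4, Klf5, Klf10 and Klf13), beside 42.9% of genes, and 3 below (Klf7, Klf9 and Klf15), beside 36.2%. All 5 treated libraries were above the control for 5 members, beside 20.1% of genes, and below it for 2, beside 19% of genes. Klf2 is counted as above, though it was only 1.02-fold over the control in day 1 replicate 2. Between the times, Klf3 was higher in both day 7 libraries than in any day 1 library (17.2% of genes) and Klf7 lower (16%). The median log2 fold change of the members was 0.97 at day 1 and 0.64 at day 7, where the median of all tested genes was 0.06 and 0.09, and it was -0.60 for day 7 against day 1, beside 0.00 for all genes. DESeq2 called 5.15% of genes at day 1, 4.99% at day 7 and 3.18% between the times, and edgeR without day 1 replicate 1 called 5.61%, 4.39% and 0%, with no member called beyond Klf4 and Klf5 at day 1. These comparisons share libraries, and the single control enters both that use it.

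The members were also set beside fixed lists of genes of their pathways, of which edgeR called no gene in any comparison with all 6 libraries. The flow pathway that turns on Klf2 and Klf4 runs through the kinases Map3k3 and Map2k5 to MEF2 factors, with the CCM proteins as a brake. Of its 10 tested genes, 5 were higher at day 1 and 4 at day 7, with medians of -0.01 and -0.12 on the log2 scale. With day 1 replicate 1 left out, 3 were higher at day 1 (median -0.13). Mef2d, its most abundant gene, had 341 CPM in the control, 264, 177 and 208 CPM at day 1, and 164 and 148 CPM at day 7, below the control in all 5 treated libraries. Mef2a had 209 CPM in the control and 143 to 231 CPM in the treated libraries, and Heg1, a CCM partner at endothelial junctions, 288 CPM and 56.1 to 223 CPM. Piezo1, a mechanosensitive channel named after inspection of its values, had 32.1 CPM in the control, 40.6, 365 and 144 CPM at day 1, and 95.9 and 121 CPM at day 7.

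Genes that Klf2 or Klf4 is known to raise in endothelium did not share a direction. Thbd, thrombomodulin, had 165 CPM in the control, 197, 343 and 173 CPM at day 1, and 147 and 71.4 CPM at day 7. Nos3, endothelial nitric oxide synthase, had 122 CPM in the control, 9.06, 254 and 44.3 CPM at day 1, and 127 and 63.7 CPM at day 7. The angiopoietin receptor Tek had 4.96 CPM in day 1 replicate 1 and 16.9 to 75.2 CPM in the other treated libraries, all below the control at 79.5 CPM. Of the 6 tested genes of the list, 3 were higher at day 1 (median log2 fold change 0.14) and 2 at day 7 (median -0.23). At day 1, 4 were higher without replicate 1 (median 0.47). Nos3 and Tek were lowest in day 1 replicate 1, as were the endothelial markers Pecam1, at 11.8 CPM there against 169 in the control, and Cdh5, at 3.39 CPM against 18.4. Not every endothelial marker was lower there. Kdr, Erg and Flt1 had 23, 1027 and 1314 counts in the control and 41, 1064 and 1996 in that library, while all others of the marker list were below the control. The endothelial sum in day 1 replicates 2 and 3 was 1342 and 377 CPM, and the part of endothelial content in these levels was not tested.

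Genes that Klf2 or Klf4 is known to hold down in endothelium were mostly above the control. Of 8, 7 were higher at day 1 (median 2.56) and 7 at day 7 (median 1.46). Klf4 and Klf2 were above the control in every treated library, though Klf2 was only 1.02-fold over it in day 1 replicate 2. Without day 1 replicate 1, edgeR called Vcam1 (log2 fold change 2.53, adjusted p = 0.0181), Ccl2 (10.98, adjusted p = 0.0153) and Sele (5.55, adjusted p = 0.0324) higher at day 1, and Ccl2 (8.08, adjusted p = 0.0309) at day 7. Ccl2 and Sele had 0.130 CPM in the control, so their fitted folds depend on the prior count. Icam1, the leukocyte adhesion molecule, had 31.8 CPM in the control and 62.7 to 288 CPM in the treated libraries.

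Contractile genes that Klf4 is known to repress had their lowest sums in the 2 libraries with most Klf4. The 8 contractile genes summed to 27173 CPM in the control, 28076, 6516 and 9750.5 CPM at day 1, and 17186 and 16869 CPM at day 7. Klf4 was highest in day 1 replicates 3 and 2, the libraries with the 2 lowest sums, but at 177 CPM in day 1 replicate 1 it was 3.42 times the control beside a sum no lower than the control's. Acta2, smooth muscle actin, had 9324 CPM in the control, 12644, 2613 and 2909 CPM at day 1, and 4943 and 5758 CPM at day 7. Tagln, an actin-binding protein gene, had 4108 CPM in the control, 1393 and 2184 CPM in day 1 replicates 2 and 3, and 4181 to 4805 CPM in the other treated libraries. Myh11, smooth muscle myosin, had 10566 CPM in the control, 7643, 1671 and 3306 CPM at day 1, and 5245 and 4860 CPM at day 7. Myocd, the coactivator of the contractile program, had 149 CPM in the control, 233, 32.6 and 84.0 CPM at day 1, and 26.2 and 76.3 CPM at day 7. Of the 8 genes, 7 had a negative fold change at day 1 (median -0.60) and 7 at day 7 (median -0.71). All 8 were negative at day 1 when day 1 replicate 1 was left out, with a median of -1.53. Acta2, Myh11, Tagln, Cnn1, Lmod1 and Smtn are also among the smooth muscle markers used here. The part of smooth muscle content in these levels was not tested.

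Growth genes linked to Klf5 were above the control as a list, with 6 of 6 higher at day 1 (median 2.13) and at day 7 (median 2.01). The day 1 count was 5 of 6 without replicate 1 (median 2.33). Ccnd1, cyclin D1, had 7.57 CPM in the control, 8.52, 42.6 and 39.4 CPM at day 1, and 95 and 160.5 CPM at day 7. It was called higher at both times without day 1 replicate 1 (log2 fold change 2.44, edgeR adjusted p = 0.0283, and 4.08, adjusted p = 0.00905). Its highest values were at day 7, when Klf5 was at 0.918 and 1.58 CPM. Pdgfa, a growth factor gene that Klf5 activates, had 16.6 CPM in the control and 51.4 to 119 CPM in the treated libraries. Myh10, the non-muscle myosin of synthetic smooth muscle, had 359 CPM in the control and 280.3 to 589 CPM in the treated libraries, on either side of the control. Egr1, a zinc-finger factor that growth signals induce, had 102 CPM in the control and 152 to 830.5 CPM in the treated libraries.

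Of 10 TGF-beta pathway genes linked to Klf6 and Klf10, 8 were higher at each time, with medians of 0.66 and 1.00. Eng, endoglin, had 143 CPM in the control and 165 to 275 CPM in the treated libraries, above the control in each. Col1a2, a collagen chain gene, had 2329 CPM in the control and 1360 to 3372 CPM in the treated libraries, and Acvrl1, an endothelial BMP receptor, 213 CPM and 123 to 222 CPM. Plau, urokinase, was called higher at both times without day 1 replicate 1 (log2 fold change 7.14, edgeR adjusted p = 0.0208, and 5.98, adjusted p = 0.0310), and Tgif1, a TGF-beta corepressor, at day 1 (2.60, adjusted p = 0.0455). Smad7, the inhibitory Smad that Klf10 represses, had 67.0 CPM in the control, 53.9, 42.8 and 55.6 CPM at day 1, and 165 and 185 CPM at day 7. The day 1 libraries were below the control and the day 7 libraries above it, while Klf10 was above the control at both times. Smad7 and, below, Nr3c1, Fkbp5, Sgk1 and Ccl5 were picked from their lists after their values were seen.

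Of the 9 glucocorticoid-responsive genes, 6 had a negative fold change at day 1 (median -0.36) and 4 at day 7 (median 0.21). By library the median over the control was -0.27, -0.41 and -0.30 at day 1, and 0.13 and -0.02 at day 7. Zbtb16 had 704 CPM in the control, 399, 112 and 343 CPM at day 1, and 430 and 173 CPM at day 7, below the control throughout as Klf15 was. Fkbp5, a chaperone of the receptor, had 473 CPM in the control, 223, 161 and 197 CPM at day 1, and 363 and 62.5 CPM at day 7, also below it throughout. Dusp1, a phosphatase that early stimuli induce too, had 512 CPM in the control and 708 to 1911 CPM in the treated libraries, and Errfi1, a feedback inhibitor of the EGF receptor, 2972 CPM and 593 to 2471 CPM. Sgk1, a kinase gene, was above the control in all 5 treated libraries, at 84.3 CPM in the control and 164 to 298 CPM in them. Nr3c1, the receptor itself, had 129 CPM in the control and 118 to 171 CPM in the treated libraries.

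Metabolic genes linked to Klf15 were lower at day 1 in 7 of 8 tested members (median -0.46) and at day 7 in 5 (median -0.35). Pdk4, which turns off pyruvate oxidation, had 210.1 CPM in the control, 112, 20.3 and 71.3 CPM at day 1, and 79.4 and 21.4 CPM at day 7. Of 9817 other genes with a mean of at least 8 CPM, Pdk4 was also the one whose pattern over the 6 libraries was closest to that of Klf15, with a root mean square difference of 0.36 in centred log2 CPM. Slc2a4, the insulin-responsive glucose transporter, was called lower at day 1 without day 1 replicate 1 (log2 fold change -2.63, edgeR adjusted p = 0.0146). Hadha, of mitochondrial fatty acid oxidation, had 109 CPM in the control and 92.9 to 110.3 CPM in the treated libraries, and Acadm, of the same pathway, 80.9 CPM and 58.7 to 123 CPM.

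Klf15 is also abundant in fat and striated muscle, whose markers are given beside it. Adipoq, Cidec, Plin1, Lep and Ucp1, 5 defining genes of fat cells, were at or below 0.259 CPM in every library, while Fabp4, which other cells also express, had 5.52 CPM in the control and 3.71 to 221 CPM in the treated libraries. The skeletal muscle markers summed to 97.7 CPM in the control, 116, 29.9 and 30.4 CPM at day 1, and 133 and 57.3 CPM at day 7. This sum was high in the control, day 1 replicate 1 and day 7 replicate 1, the 3 libraries with most Klf15. Ckm, muscle creatine kinase, had 40.2 CPM in the control, 23.8, 1.45 and 2.29 CPM at day 1, and 20.4 and 1.49 CPM at day 7, high and low in the same libraries as Klf15. Acta1, skeletal actin, had 43.8 CPM in the control and 7.58 to 78.1 CPM in the treated libraries, and Tnnt3, a fast troponin, 13.4 CPM and 14.0 to 37.5 CPM. Of the 7 markers, Myh4 was at 0 in the control, and Mb and Tnni2 were at 0.0325 and 0.0649 CPM there. The counts of Myh4, Mb, Tnni2 and Mylpf were 0, 1, 2 and 6 in the control and 0, 2, 0 and 6 in day 1 replicate 1. In day 7 replicate 1 they were 78, 317, 319 and 651. Myh4, Mb, Tnni2, Mylpf and Tnnt3 were highest in day 7 replicate 1 and Acta1 in day 1 replicate 1. Ckm was highest in the control, as Klf15 was. The part of skeletal muscle RNA in the level of Klf15 was not tested. The 9 smooth muscle markers summed to 30712 CPM in the control, 30418, 7146.5 and 10973 CPM at day 1, and 18552 and 18512 CPM at day 7. Klf9 and Klf15 moved with the smooth muscle sum at day 1, and its part in their levels was not tested.

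Klf2 and Klf6 were set beside the 12 immediate early genes, which any fresh stimulus, including handling of the tissue, can induce. All 12 had a positive fold change at each time, with a median of 2.35 at day 1 and 2.35 at day 7. By library, their median over the control was 2.39, 1.39 and 2.58 at day 1, and it was highest in day 7 replicate 1 and lowest, at 1.20, in day 7 replicate 2. Fos had 46.5 CPM in the control, 1544, 167 and 2064 CPM at day 1, and 1277 and 686 CPM at day 7. Fosb followed the same order of libraries at day 7, with 901 and 212 CPM against 44.5 in the control. The libraries with the lowest early response at each time, day 1 replicate 2 and day 7 replicate 2, were also the lowest of their group for Klf2 and for Klf6. The same held for Klf9 and Klf15, which were below the control in every treated library. Being lowest in these libraries was therefore not particular to Klf2 and Klf6. Whether tissue handling had a part in these levels was not tested.

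**Figure D4:**
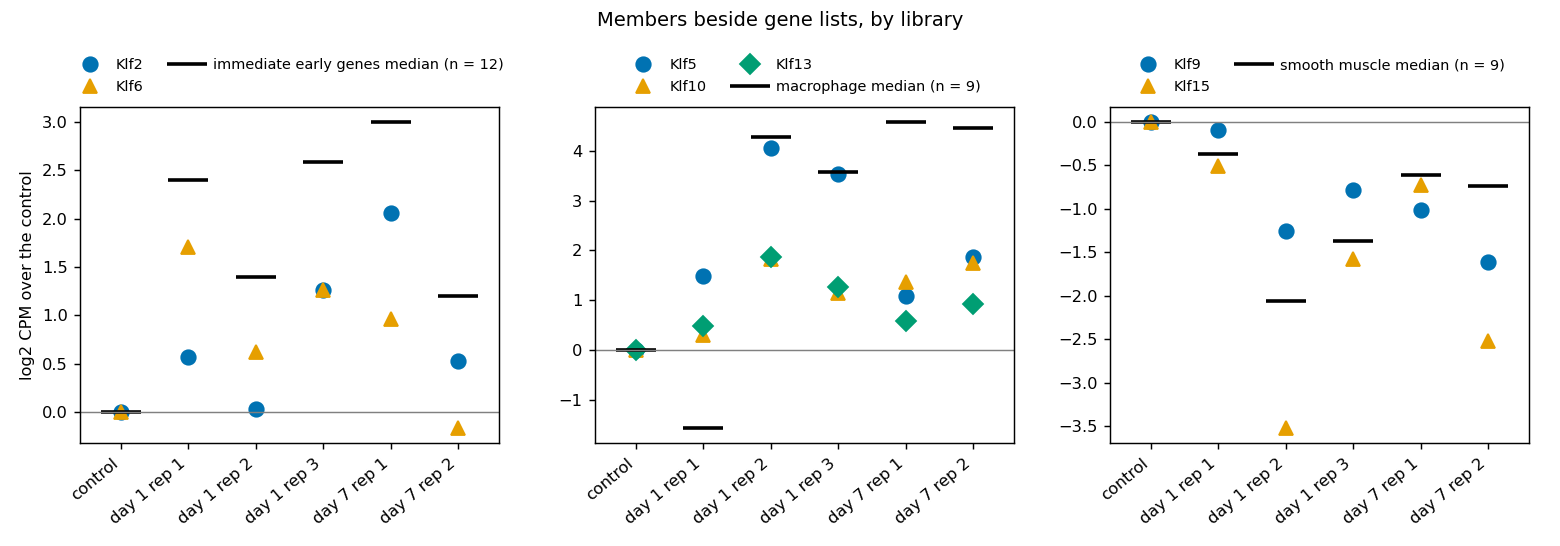
Log2 CPM over the control in each library for Klf2 and Klf6 beside the median of the immediate early genes, for Klf5, Klf10 and Klf13 beside the macrophage markers, and for Klf9 and Klf15 beside the smooth muscle markers, with n genes behind each black bar. Day 1 replicate 1 has a macrophage median of -1.56, with Cd68, Lyz2 and Itgam above the control and the other macrophage markers below it. Klf5, Klf10 and Klf13 are above the control there.

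The members that were highest in day 1 replicate 2, Klf5, Klf10 and Klf13, were set beside leukocyte markers, and these pairings of members with lists were made after the values were seen. The macrophage median over the control was -1.56, 4.29 and 3.58 on the log2 scale at day 1, and 4.58 and 4.46 at day 7. In day 1 replicate 1 the markers were split. Cd68, Lyz2 and Itgam had 34, 402 and 20 counts in the control and 46, 859 and 45 there, and the other macrophage markers were below the control. Klf5 over the control was 1.49, 4.06 and 3.54 at day 1, and 1.08 and 1.86 at day 7. The order of the day 1 libraries was the same, but at day 7, with macrophage markers as high as in day 1 replicate 2, Klf5 was lower than in day 1 replicates 2 and 3. The median of the 6 neutrophil markers was 3.69, 4.78 and 5.83 at day 1, and 2.56 and 0.36 at day 7. Their sum in the control was only 2.44 CPM. Like Klf5, this median was lower at day 7 than in day 1 replicates 2 and 3, but it was highest in day 1 replicate 3. The 7 T and NK cell markers summed to 0.455 CPM in the control and 0.544 in day 1 replicate 1, and to 12.1 to 14.7 CPM in the other 4 libraries. The 6 lymphocyte genes linked to Klf2 and Klf13 all had positive fold changes at both times (medians 5.37 and 3.52), with Ccl5 at 0.747 CPM in the control, 0.608, 4.87 and 3.93 CPM at day 1, and 2.45 and 1.43 CPM at day 7. Without day 1 replicate 1, edgeR called Itgb7 (log2 fold change 6.22, adjusted p = 0.00930) and Il7r (9.80, adjusted p = 0.0411), genes of lymphocyte homing and survival, higher at day 1, from 0.130 and 0.0649 CPM in the control. S1pr1, the receptor for lymphocyte exit, had 40.6 CPM in the control and 27.6 to 85.9 CPM in the treated libraries. The part of leukocyte RNA in the levels of Klf5, Klf10 and Klf13 was not tested.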

How the data were processed

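Read counts and FPKM per gene symbol were made by the authors and deposited for all 6 libraries. Per the submitters' processing notes the tools were StringTie 1.3.1, HISAT2, fastp 0.18.0 and Bowtie2 2.2.8, without their roles. What counted the reads, with which strand setting, build and annotation, is not given in the sources used here, so overlapping antisense genes cannot be told apart. The deposited FPKM equal the counts scaled by 1 length per gene and the library total (relative spread at most 2.2e-14 over 14607 genes). They served to compare levels between genes and were not tested.

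Libraries were grouped by title. After filterByExpr (15860 genes) and TMM scaling, a quasi-likelihood model with robust dispersions was fitted in edgeR 4.0.16 (R 4.3.3), with 3 group means and 3 residual degrees of freedom. These come from the day 1 and day 7 libraries, and the lone control is taken to scatter as they do. Calls use a Benjamini-Hochberg adjusted p under 0.05 over all tested genes, and SE is the fold change divided by the root of F. Log2 CPM by library used an offset of 0.5 counts. The pipeline was tested on simulated data. Alternatives were other size factors and filters, limma-voom (limma 3.58.1), DESeq2 1.42.0, each treated library left out, the treated libraries alone and replicate blocks. Named were all members, the 3 most abundant genes of each pathway list, genes past the threshold and the genes most like each member in pattern, except some list genes that are not reported here. Members and lists were chosen with earlier results of these data known. Intervals cover counting error only.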

Additional observations from a re-analysis of the deposited data

Results flagged for a closer look

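Klf3 was flagged because its 3 day 1 libraries all lay below the control and its 2 day 7 libraries all above it. Each part of this pattern is common: 27.2% of tested genes had all day 1 libraries below the control, and 42.9% had both day 7 libraries above it. Both day 7 libraries were above every day 1 library for 17.2% of tested genes. The mean log2 difference from the control was -0.15 at day 1 and 0.34 at day 7, a gap of 0.50 between the times. The direct comparison of day 7 with day 1 did not pass (edgeR log2 fold change 0.51 ± 0.20, adjusted p = 0.491, over 14 alternatives 0.328 to 1.00). No group of 4 or more libraries exists, so no single library was screened as an outlier within a group.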

How the results depend on the processing

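With all 6 libraries edgeR called 0 genes and 0 members in each comparison, beside 1373 genes at an unadjusted p under 0.05 for day 1 against the control, 1601 for day 7 against the control and 1602 between the times, and limma-voom called 0 as well. DESeq2 called 817 genes and 1 member at day 1, 791 genes at day 7 and 505 between the times. With no count filter edgeR called 1 gene at day 7. With a treated library left out, the counts ranged from 0 to 885 genes and 0 to 2 members at day 1 and from 0 to 693 genes at day 7, where of the 5 treated libraries only the omission of day 1 replicate 1 gave any call. The day 7 libraries carry replicate numbers 1 and 2 in the titles and 2 and 3 in the descriptions, and only 2 pairs could be formed (correlation of deviations -0.04 to 0.04), so the numbers were not taken to pair samples. A replicate block from the titles gave 0 calls between the times, and a block from the descriptions 103 genes and 0 members. No paired analysis was possible with the control, which has no number. Signs turned when 1 library was left out for Klf7 at day 1 (-0.27 to 0.091, the latter without day 1 replicate 2, and 0.05 without replicate 3), for Klf6 at day 7 (-0.16 without day 7 replicate 1, up to 0.96) and for Klf2 between the times (-0.19 without day 7 replicate 1, up to 1.35). For Klf15 between the times the range was -1.11 to 0.89, with -1.11 lacking day 7 replicate 1, -0.41 lacking day 1 replicate 2 and -0.01 lacking day 1 replicate 3. The cause was not tested. Of the remaining values of single members under alternatives, 350 kept direction and side of the threshold and 3 came to pass it. With 1 control library its own spread is unknown, and Klf5 rests on 13 control counts.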

Other observations

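Of the 7 other Kruppel-like genes in the table, Klf17 had 0 counts in every library and Klf14 at most 4. Klf16 had 4.19 CPM in the control, 29.3, 34.5 and 16.5 CPM at day 1, and 30.4 and 25.8 CPM at day 7, above the control in all 5 treated libraries. Its log2 fold change was 2.67 at day 1 (edgeR adjusted p = 0.422) and 2.75 at day 7 (adjusted p = 0.477), and without day 1 replicate 1 it stood at the edge of the threshold (adjusted p = 0.0506 and 0.0508). Klf12 was below the control in each treated library, at 56.3 CPM in the control and 25.9 to 43.7 CPM in the others. Klf11 had 14.2 CPM in the control and 15.4 to 30.2 CPM in the others. Klf1, the erythroid factor, had 0.130 CPM in the control and 2.72 CPM in day 1 replicate 1, the library with the most Hbb, a beta globin gene (2147 CPM against 217 in the control). The related factor genes Sp1 to Sp4 and Sp6 and Sp7 had a median log2 fold change of -0.40 at day 1 and -0.49 at day 7, with Sp1 at 143 CPM in the control and 84.8 to 124 CPM in the others. The 9 corepressors and coactivators had medians of -0.12 (-0.20 without day 1 replicate 1) and -0.30, with Ctbp1, a partner of Klf3, at 134 CPM in the control and 123 to 159 CPM in the others.

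The genes whose centred log2 CPM lay closest to single members over the 6 libraries were found for each. Klf4 was closest to Pim1, a survival kinase gene (root mean square difference 0.12), and then to Ier5, an early response gene (0.21). Klf6 was closest to Ppp1r15a, a stress-induced phosphatase subunit gene (0.17). Klf9 was closest to Kcnj8, a potassium channel subunit gene of smooth muscle (0.09), and Klf3 to Ddx6, an RNA helicase gene (0.04). Klf5 was closest to Gch1 (0.40), the first enzyme of tetrahydrobiopterin synthesis, and then to Tnfaip3, a feedback inhibitor of NF-kB (0.45). Klf7 had Sp4 as its second closest gene (0.19). These are descriptions of 6 libraries that share their depth and composition.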
